A study of Mus musculus with 6 samples.

Results

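Podoplanin (Pdpn) and 9 genes commonly used to mark cancer-associated fibroblasts were examined in B16-F1 melanoma tumours: Fap, Pdgfra, Pdgfrb, Acta2, Tagln, Thy1, Postn, Fn1 and Sparc. Each was read from 1 probe set annotated to that gene alone, the one with the highest mean of the 6 arrays, and they make up 10 of the 22180 genes so measured. All 10 had a single such probe set, so the choice of the brightest had no effect on them. The genes were picked with the host difference of Pdpn already known, and that difference is therefore given as a description.

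The tumours came from B16-F1 cells, a pigmented mouse melanoma line, implanted at the dorsal flank of C57BL6 mice that were either wild type (WT host) or lacked Stat2 (Stat2 KO host). They were collected at day 20, 3 tumours per host genotype, each on 1 array. The implanted cells are labelled alike in both groups, and the labels give neither the age of the mice nor the design of the Stat2 deletion. Nothing in the labels ties a tumour to a mouse of its own. The p-values therefore reflect only how far these tumours scatter, which may be technical. The submitters' design text reports larger tumours in the hosts without Stat2.

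Fibroblasts of the tumour stroma secrete and remodel matrix, and those that turn into myofibroblasts build a contractile apparatus with smooth muscle actin. PDGF receptors carry growth signals to fibroblasts and to the pericytes of vessel walls. Podoplanin is a mucin-like membrane glycoprotein that binds the platelet receptor CLEC-2 outside the cell and the ERM proteins ezrin, moesin and radixin inside it. It is also made by lymphatic endothelium, by some epithelial cells and by some macrophages. STAT2, the protein missing from the Stat2 KO hosts, is part of a transcription factor complex that binds interferon-stimulated response elements after type I interferon.

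The promoter of Pdpn is shown because this gene had the widest separation between the host groups, and the promoter of Postn because, of the 5 genes with a window, it was the one with a motif match. RefSeq promoter windows on GRCm38.p6 were used for 5 of the 10 genes, in 6 windows, after windows on a single chromosome were left out. The 250 bases before the annotated start were searched on both strands. The Pdpn window lies at chr4:143299565-143299814 on the minus strand, just upstream of the transcribed part of the gene. The Postn window lies at chr3:54360857-54361106 on the plus strand, before the second of its listed starts. Capitals mark a TATA box; bases without capitals matched none of the motifs searched.
Pdpn: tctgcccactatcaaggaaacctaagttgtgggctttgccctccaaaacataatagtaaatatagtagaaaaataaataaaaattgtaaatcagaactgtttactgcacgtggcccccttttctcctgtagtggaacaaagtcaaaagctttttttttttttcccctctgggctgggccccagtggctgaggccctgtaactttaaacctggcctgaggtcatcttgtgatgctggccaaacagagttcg
Postn: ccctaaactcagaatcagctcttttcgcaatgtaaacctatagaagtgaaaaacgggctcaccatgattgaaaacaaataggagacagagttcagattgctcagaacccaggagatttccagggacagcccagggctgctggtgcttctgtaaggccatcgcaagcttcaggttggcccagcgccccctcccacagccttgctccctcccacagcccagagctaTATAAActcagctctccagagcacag

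The letters GAAANNGAAA of the interferon-stimulated response element were in 0 of the 6 windows and in 2.98% of 32851 windows of all genes. The GC box GGGCGG was likewise in 0 of the 6, against 32.7% of all windows. The TATA box TATAAA was in 1, the Postn window shown, where it spans 26 to 21 bases before the start, and in 12.4% of all windows. A match or its lack describes these letters in these windows only. No motifs overlapped in the windows shown.

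Array values are log2 expression. Array medians lay between 6.27 and 6.44 and correlations between arrays between 0.964 and 0.986 across genes. Stat2 itself read 6.79, 6.70 and 6.70 in the WT hosts, in replicate order, against 6.45, 6.48 and 6.33 in the Stat2 KO hosts, a difference of -0.31 (SE 0.126, limma adjusted p = 0.532). The groups did not overlap, and 5.11% of all genes had separate groups with the Stat2 KO hosts lower. Stat2 had a mean under 7.01, the 97.5th percentile of the olfactory receptor genes, used here as a rough gauge of background. It was thus not shown to read above background, and which exons this probe set reads is unknown here. Melanoma cell markers were bright in every tumour, with Mlana, Pmel, Tyr and Tyrp1 at 11.3, 12.9, 10.4 and 13.0 in WT hosts, against 11.1, 12.6, 10.4 and 12.9 without host Stat2. Replicate 2 of the Stat2 KO hosts stood apart. Its SD over all genes was 1.41 against 1.45 to 1.58 in the other arrays, and its brightest 10% of genes averaged 9.22 against 9.35 to 9.50.

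Of the 10 genes, Pdpn alone had host groups that did not overlap, Fn1 was the other gene with an interval that excluded 0, and the intervals of the other 8 genes included 0. With limma's adjustment over all genes, 0 of the 10 passed the threshold of 0.05, and 0.00902% of all genes did. At an unadjusted limma p under 0.05 there were 2 of the 10, Pdpn and Fn1, both lower in Stat2 KO hosts, where 3.48% of all genes were lower at that level and 8.82% differed in either direction. Groups were separate in either direction for 13.3% of all genes. The difference was below 0 for 8 of the 10 and for 46.0% of all genes, and its median was -0.12 against 0.021. Among genes brighter than the median gene, which include 8 of the 10, the median was -0.14 for those 8 and -0.068 for all. Signs of 6 of the smaller differences turned when 1 tumour was left out, as given with each gene. RNA of the whole tumour was measured, so fewer cells of a type and less RNA per cell cannot be told apart.

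**Figure D1:**
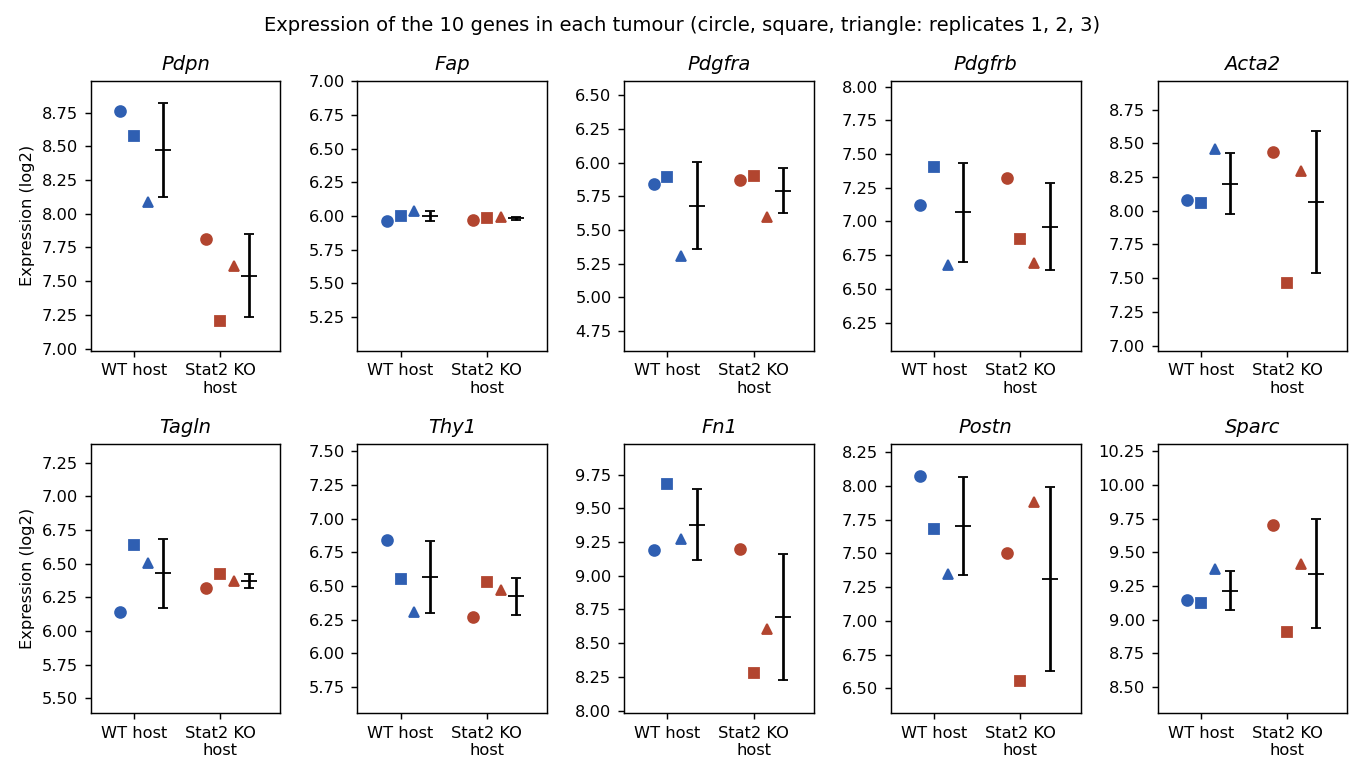
Log2 expression of the 10 genes in each tumour, with WT hosts in blue and Stat2 KO hosts in red, circles, squares and triangles for replicates 1, 2 and 3, and the group mean with its SD in black. Every panel spans the same number of log2 units around its own centre. The Pdpn groups are separate, from 7.21 to 7.81 against 8.09 to 8.76, and the Fap values are nearly flat.

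Pdpn read 8.76, 8.58 and 8.09 in the WT hosts and 7.81, 7.21 and 7.61 in the Stat2 KO hosts. Every Stat2 KO tumour lay below every WT tumour, with 0.28 log2 units between the nearest of them. The group means were 8.48 ± 0.35 and 7.54 ± 0.31 (SD, n = 3 each), so the WT level was 1.91-fold that of the Stat2 KO hosts. The difference was -0.93 (SE 0.197, 95% interval -1.36 to -0.50, limma adjusted p = 0.316), and 18 of the 22180 genes had a lower one. Groups did not overlap, with the Stat2 KO hosts lower, for 5.11% of all genes.

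Leaving out 1 tumour at a time kept the Pdpn difference between -1.13 and -0.77. Groups that are separate with all tumours stay separate when any is removed, so their separation in these comparisons adds nothing. Of all genes, 19.6% to 34.7% had separate groups there. With array weights, which give noisier arrays less influence, the adjusted p of Pdpn was 0.0285, and over all alternatives it ranged from 0.0285 to 0.850. Without Stat2 KO replicate 2, the array that stood apart, the difference was -0.77 (limma adjusted p = 0.439).

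The known partners of podoplanin were measured by 7 genes, and none was called. Of these, 5 were lower and 2 higher in Stat2 KO hosts, 0 passed the adjusted threshold, and the median was -0.15, or -0.0096 without Stat2 KO replicate 2. Clec1b, which encodes the receptor CLEC-2 of platelets, read 4.88 ± 0.19 in WT hosts against 4.96 ± 0.096 in those without Stat2 (SD, n = 3 each). Both lie under 5.21, the median of the olfactory receptor genes, which serve here as a rough gauge of background. The genes of the ERM linkers that tie podoplanin to the actin cortex differed by -0.35 for Ezr (SE 0.167), -0.15 for Msn (SE 0.159) and 0.11 for Rdx (SE 0.168). Cd44, a hyaluronan receptor that associates with podoplanin, differed by -0.31 (SE 0.229), and the galectin gene Lgals8 by -0.039 (SE 0.177).

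Cd9, a tetraspanin that binds podoplanin, was the 1 partner of 7 with separate groups, against 13.3% of all genes. It read 8.52, 8.70 and 8.35 in the WT hosts and 8.06, 8.22 and 8.01 in the Stat2 KO hosts. The difference was -0.43 (SE 0.141, limma adjusted p = 0.486).

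Podoplanin is not particular to fibroblasts, so markers of other cells that can make it were read beside it. Macrophage markers were lower in Stat2 KO hosts in 10 of 10 genes, with a median of -0.40. At an unadjusted limma p under 0.05 there were 5 of them, where 3.48% of all genes were lower at that level. After adjustment over all genes 0 passed. Cd68, a lysosomal glycoprotein, differed by -0.61 (SE 0.163), Adgre1, which encodes F4/80, by -0.21 (SE 0.162), the receptor gene Csf1r by -0.29 (SE 0.173) and the complement gene C1qa by -0.32 (SE 0.153). The mean of the 10 macrophage markers lay between 6.27 and 6.53 in Stat2 KO tumours and between 6.67 and 6.96 in WT tumours. Only 2 of the 10 had a mean above 7.01, the 97.5th percentile of the olfactory receptor genes. Adgre1, Csf1r and C1qa did not, so most of this list was not shown to read above background. Their part in the Pdpn difference was not tested.

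Lymphatic endothelial markers were not shown to read above background. Lyve1, a hyaluronan receptor, differed by 0.21 (SE 0.192), the transcription factor gene Prox1 by -0.12 (SE 0.166), Flt4, the receptor of VEGF-C, by 0.0077 (SE 0.129) and Reln by 0.17 (SE 0.125). Of 5 measured markers 1 was lower and 4 were higher, and 0 of the 5 had a mean above 7.01, the 97.5th percentile of the 1088 olfactory receptor genes. The same held for keratinocyte markers, with 0 of 7 above that level, a median difference of 0.058 that was -0.0084, -0.053 and -0.061 after median centring, quantile normalization and cyclic loess, and Krt14, Krt15, Krt1 and Krt10 at 0.058, 0.045, -0.014 and 0.27. Probe sets differ in how they bind, so a mean under this level does not show that a gene is silent.

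Fap and Pdgfra, surface markers by which tumour fibroblasts are often recognised, showed no resolved difference. Fap encodes fibroblast activation protein, a membrane serine protease, and read 5.9652, 6.0002 and 6.0378 in WT hosts and 5.9719, 5.9841 and 5.9968 in Stat2 KO hosts. All 6 values lay within 0.073 log2 units, a narrower range than in all but 0.0631% of genes. Its difference was -0.017 (SE 0.125, 95% interval -0.29 to 0.25, limma adjusted p = 0.973). The groups of Fap overlapped as deposited, but not after quantile normalization, median centring or cyclic loess, where the Stat2 KO hosts were lower and 12.0% to 12.3% of all genes had separate groups. The difference was 0.0016 when WT replicate 3 was left out. Of its protease relatives, Dpp4 differed by 0.13 (SE 0.137), Dpp8 by 0.14 (SE 0.152) and Dpp9 by -0.071 (SE 0.141).

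Pdgfra, the receptor for PDGF-A and PDGF-C chains, read 5.84, 5.89 and 5.31 in WT hosts and 5.87, 5.90 and 5.60 in Stat2 KO hosts. Replicate 3 was the lowest of each group. The difference was 0.11 (SE 0.175, 95% interval -0.27 to 0.49, limma adjusted p = 0.852) and its sign was not settled, since it was -0.0080 after cyclic loess. It was -0.088 when arrays were weighted and -0.076 without WT replicate 3. Fap, Pdgfra, Tagln and Thy1 all had means within the range of olfactory receptor genes, under 7.01, so that 4 of the 10 genes were not shown to read above background.

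Pdgfrb, the PDGF receptor of pericytes and many fibroblasts, read 7.12, 7.41 and 6.68 in WT hosts and 7.32, 6.87 and 6.69 in Stat2 KO hosts. Both groups covered nearly the same range. The difference was -0.11 (SE 0.203, 95% interval -0.55 to 0.33, limma adjusted p = 0.880), and it was 0.027 when Stat2 KO replicate 3 was left out and 0.061 when WT replicate 2 was. It was larger with array weights, at -0.39 (limma adjusted p = 0.214), when Stat2 KO replicate 1 was left out, at -0.29, and when WT replicate 3 was, at -0.30. The related receptor kinase genes Kit and Csf1r differed by -0.23 (SE 0.141) and -0.29 (SE 0.173). Among the PDGF ligands Pdgfa differed by 0.045 (SE 0.130), Pdgfb by -0.18 (SE 0.136), Pdgfc by 0.12 (SE 0.130) and Pdgfd by -0.28 (SE 0.151). None of the 4 passed, and the unadjusted limma p was under 0.05 for 0 of them.

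Pericyte markers, which share Pdgfrb with fibroblasts, were lower in 2 and higher in 6 of 8 genes, with a median of 0.028 (-0.038 after median centring, -0.018 without Stat2 KO replicate 2). Rgs5, a regulator of G protein signalling, differed by -0.22 (SE 0.206), the proteoglycan gene Cspg4, which encodes NG2, by 0.014 (SE 0.148), and the channel subunit genes Kcnj8 and Abcc9 by 0.043 and 0.20 (SE 0.136 and 0.144). In these 8 genes 0 passed after adjustment. At an unadjusted limma p under 0.05 were Anpep at -0.42 and Mcam at 0.53, named after their values were seen. Among all genes, 8.82% differed in either direction at that level.

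Acta2 and Tagln, the contractile genes of myofibroblasts and smooth muscle, did not separate the hosts. Acta2, which encodes smooth muscle alpha actin, read 8.08, 8.06 and 8.46 in WT hosts and 8.44, 7.46 and 8.29 in Stat2 KO hosts. Stat2 KO replicate 2 was the single low value, and the other Stat2 KO tumours lay within the WT range. The difference was -0.14 (SE 0.226, 95% interval -0.63 to 0.36, limma adjusted p = 0.861), and 0.16 without that replicate.

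Tagln encodes transgelin, an actin-binding protein. It read 6.14, 6.64 and 6.51 in WT hosts and 6.32, 6.42 and 6.37 in Stat2 KO hosts, all Stat2 KO values lying inside the WT range. Its difference was -0.059 (SE 0.150, 95% interval -0.39 to 0.27, limma adjusted p = 0.914), and 0.044 without WT replicate 2. In Stat2 KO replicate 2, where Acta2 was 0.67 log2 units below its mean of 6 tumours, Tagln was 0.022 above its own.

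The wider contractile programme was likewise unresolved. Of 12 measured genes 5 were lower and 7 higher in Stat2 KO hosts, with a median of 0.042 (-0.024 after median centring), and 0 had an unadjusted limma p under 0.05. Cnn1, which encodes calponin, differed by 0.064 (SE 0.166), the smooth muscle myosin gene Myh11 by -0.016 (SE 0.133), the light chain gene Myl9 by 0.021 (SE 0.159) and the light chain kinase gene Mylk by 0.13 (SE 0.149). The other actin genes differed by -0.11 for Actb, -0.19 for Actg1, 0.17 for Actg2, 0.27 for Acta1 and 0.0094 for Actc1, with overlapping groups in all 5. Actins are near-identical in sequence, and how far their probe sets share signal was not tested. The relatives of transgelin, Tagln2 and Tagln3, differed by -0.069 and 0.079.

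Thy1, a GPI-anchored surface glycoprotein of fibroblasts, T cells and neurons, read 6.84, 6.55 and 6.31 in WT hosts and 6.27, 6.53 and 6.47 in Stat2 KO hosts. WT replicate 1 was the high value and the remaining tumours overlapped. The difference was -0.14 (SE 0.158, 95% interval -0.49 to 0.20, limma adjusted p = 0.791), and -0.0051 without WT replicate 1. T cell markers, the other source of Thy1 that the lists cover, were lower in 1 and higher in 5 of 6 genes with a median of 0.076, or -0.031 after quantile normalization and -0.038 after cyclic loess. Cd3d, Cd3e, Cd3g and Cd2 differed by 0.15, 0.089, 0.25 and 0.011, and 0 of the 6 had a mean above 7.01.

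**Figure D2:**
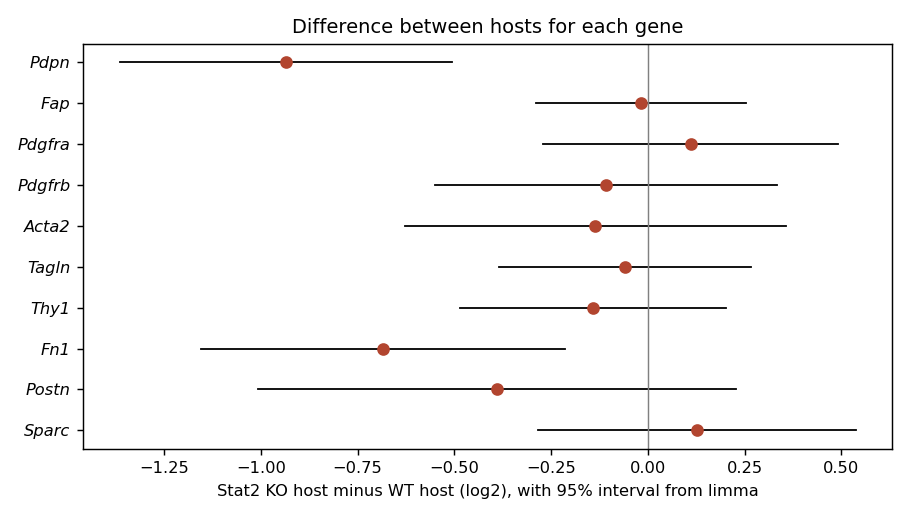
Difference of each of the 10 genes between hosts, Stat2 KO host minus WT host in log2 units, as a point with the 95% interval of the limma fit as a line. The intervals of Pdpn (-1.36 to -0.50) and Fn1 (-1.15 to -0.21) lie below 0, and those of the other genes include it.

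Fn1, Postn and Sparc are secreted matrix genes, and they are described in turn. Fn1 encodes fibronectin, the adhesive glycoprotein that cells bind through integrins, and read 9.19, 9.68 and 9.27 in WT hosts and 9.20, 8.28 and 8.61 in Stat2 KO hosts. Stat2 KO replicate 1 lay just above the lowest WT tumour, and replicates 2 and 3 of that group lay under the whole WT range. The group means were 9.38 ± 0.26 and 8.69 ± 0.47 (SD, n = 3 each), and the WT level was 1.61-fold that of the Stat2 KO hosts. The difference was -0.68 (SE 0.216, 95% interval -1.15 to -0.21, limma adjusted p = 0.486).

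Fn1 stayed below 0 in every alternative, with -0.94 when Stat2 KO replicate 1 was left out and -0.48 when replicate 2 of that group was. Its adjusted p was 0.0426 with array weights and ranged from 0.0426 to 0.908. Its groups did not overlap after median centring, where 12.0% of all genes were separate. The same held when Stat2 KO replicate 1 was left out, with 34.7% of all genes separate, and when WT replicate 1 was, with 19.6%. Only this pair of tumours overlapped, at 9.197 and 9.187, so leaving out either of them had to separate the groups.

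Integrin genes whose products bind fibronectin were read beside Fn1. Of 7 measured, 2 were lower and 5 higher in Stat2 KO hosts, with a median of 0.17 that was 0.0012 when Stat2 KO replicate 1 was left out and 0.006 when replicate 3 of that group was, and 0 had an unadjusted limma p under 0.05. The main fibronectin receptor pairs Itga5 with Itgb1, which differed by -0.14 (SE 0.158) and 0.0069 (SE 0.180). Itgav and Itgb3, which form a receptor shared with vitronectin, differed by 0.29 (SE 0.164) and 0.18 (SE 0.173). Itga4, Itga8 and Itgb6 differed by 0.17, -0.088 and 0.26.

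Postn encodes periostin, a matricellular protein that binds integrins and collagen, and it varied more between tumours of a group than any of the other 9 genes in Stat2 KO hosts. It read 8.07, 7.68 and 7.35 in WT hosts and 7.50, 6.56 and 7.88 in Stat2 KO hosts. The SD was 0.36 for WT hosts but 0.68 for Stat2 KO hosts (n = 3 each), and Stat2 KO replicate 2 was far below the others. The difference was -0.39 (SE 0.284, 95% interval -1.01 to 0.23, limma adjusted p = 0.691), and -0.011 without that replicate.

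Tgfbi, the closest relative of Postn and induced by TGF-beta, was read beside it. It was 7.41, 7.35 and 7.30 in WT hosts and 6.59, 6.604 and 6.78 in Stat2 KO hosts, with separate groups. Its difference was -0.70 (SE 0.129, limma adjusted p = 0.257). Tgfbi was the 1 gene with separate groups among the 16 close relatives that were read, against 13.3% of all genes. Of these 16, 7 were lower and 9 higher in Stat2 KO hosts, with a median of 0.010 (-0.056 after median centring). The mean of Tgfbi was not above 7.01, the 97.5th percentile of the olfactory receptor genes, so it was not shown to read above background.

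Sparc encodes osteonectin, a collagen-binding matricellular protein, and read 9.15, 9.12 and 9.38 in WT hosts and 9.70, 8.91 and 9.42 in Stat2 KO hosts. The Stat2 KO tumours held both the highest and the lowest value. The difference was 0.13 (SE 0.189, 95% interval -0.28 to 0.54, limma adjusted p = 0.843), with 0.34 when Stat2 KO replicate 2 was left out and -0.055 when replicate 1 of that group was. Its relatives Sparcl1, Smoc1 and Smoc2 differed by 0.12, 0.12 and 0.011.

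Ratios within an array take out a shift that both genes share on that array. Of the 45 ratios between the 10 genes, 11 had separate host groups, and 7 of these involve Pdpn. The 45 ratios reuse the values of the same 10 genes, and no share for ratios of other genes was computed. Pdpn itself had separate groups, so its ratios are not separate results. The log2 ratio of Fn1 to Sparc was 0.040, 0.56 and -0.11 in WT hosts and -0.51, -0.63 and -0.81 in Stat2 KO hosts. These groups did not overlap, and the mean ratio was 0.81 lower in log2 units, from 0.16 ± 0.35 to -0.65 ± 0.15 (SD, n = 3 each). The ratio of Pdpn to Sparc was -0.38, -0.54 and -1.29 in WT hosts and -1.89, -1.70 and -1.81 in Stat2 KO hosts, also without overlap. Pdpn over Acta2 overlapped, at 0.68, 0.52 and -0.37 in WT and -0.63, -0.26 and -0.68 in Stat2 KO hosts. Against Fn1, Pdpn overlapped as well, at -0.42, -1.101 and -1.18 in WT and -1.39, -1.07 and -0.99 in Stat2 KO hosts. These ratios were chosen after the values were seen and were given no test.

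**Figure D3:**
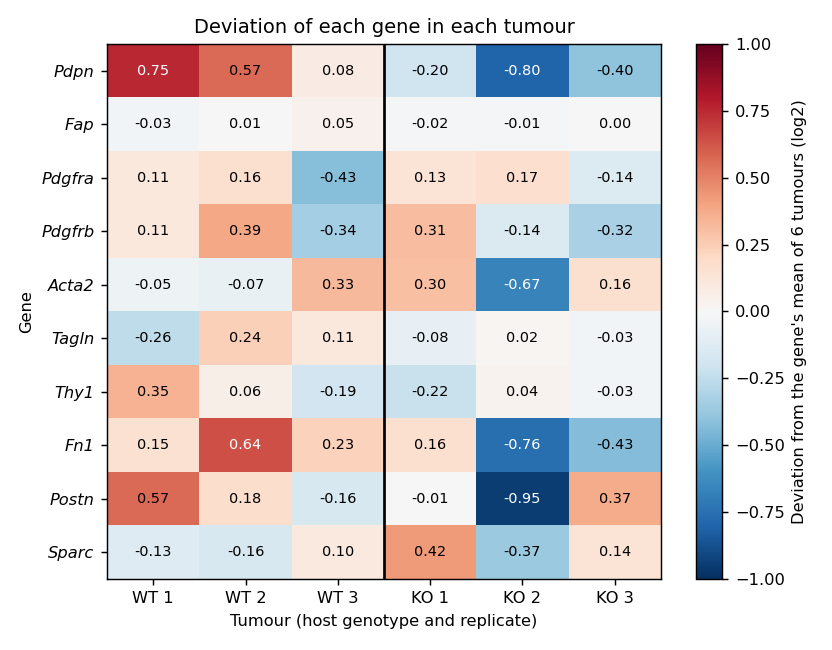
Deviation of each of the 10 genes from its own mean over the 6 tumours, in log2 units, with WT hosts on the left and Stat2 KO hosts on the right of the line. Red is above and blue below the mean. Stat2 KO replicate 2 holds the lowest value for Pdpn, Acta2, Fn1, Postn and Sparc, from -0.37 to -0.95.

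Tumours of a group differed as much as the groups did for most of the 10 genes. Stat2 KO replicate 2 was the lowest of the 6 tumours for 5 genes, and the highest for 1, Pdgfra. WT replicates 1 and 2 were the highest tumours for 3 genes each. The median deviation of the 10 genes from their means was 0.11, 0.17 and 0.062 in WT hosts and 0.064, -0.26 and -0.028 in Stat2 KO hosts. The lowest of these was that of Stat2 KO replicate 2, and without it 7 of the 10 genes were below 0, with a median difference of -0.040. Melanoma cell markers were low in the same array, with a mean of 10.30 against 10.63 to 10.94 in the others. The share of tumour cells was not tested.

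General fibroblast markers went both ways. Of 15 measured, 9 were lower and 6 higher in Stat2 KO hosts with a median of -0.14, and 0 passed after adjustment over all genes. The median was 0.038 without WT replicate 2, -0.29 with array weights and -0.41 among genes above the median level. At an unadjusted limma p under 0.05 there were 4 lower, Dcn, Lum, Col3a1 and Fbln1, and 2 higher, Pdgfrl and Mfap4. Of these Lum, the proteoglycan lumican, differed by -1.21 (SE 0.366), named with Col3a1, Fbln1 and Mfap4 after their values were seen. Among all genes, 3.48% were lower at an unadjusted limma p under 0.05 and 8.82% differed in either direction. Lum read 7.64, 6.87 and 5.60 in WT hosts and 5.51, 5.33 and 5.63 in Stat2 KO hosts. Its groups overlapped, with WT replicate 3 inside the Stat2 KO range. Of the 15 markers 5 had a mean above 7.01, and Dcn, Lum, Pdgfrl and Mfap4 did not. Vim, which encodes the intermediate filament vimentin, differed by -0.14 (SE 0.146), S100a4 by 0.096 (SE 0.154), Pdgfrl by 0.53 (SE 0.151) and Dcn, the proteoglycan decorin, by -0.94 (SE 0.210). Their mean lay between 6.70 and 6.92 in Stat2 KO tumours and between 6.94 and 7.12 in WT tumours. Inflammatory fibroblast genes, a subset defined by secreted cytokines, gave 5 lower and 6 higher of 11, with a median of 0.018 that was below 0 under each further scaling, from -0.073 to -0.048. Il6, Cxcl12, Cxcl1 and Lif differed by 0.031, 0.019, -0.018 and 0.10, and 0 of the 11 had a mean above 7.01.

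Matricellular and elastic fibre genes were lower in 10 of 12 measured, with a median of -0.14 and 0 past the adjusted threshold. Tnc, which encodes tenascin C, read 7.11, 7.11 and 6.90 in WT hosts and 6.78, 6.34 and 6.80 in Stat2 KO hosts, with separate groups and a difference of -0.40 (SE 0.155, limma adjusted p = 0.521). Its mean was under 7.01, the 97.5th percentile of the olfactory receptor genes. Of the 12 genes, 2 had separate groups with Stat2 KO hosts lower and 1 with them higher. Among all genes 13.3% were separate in either direction. Thrombospondin genes Thbs1 and Thbs2 differed by -0.38 (SE 0.173) and 0.11 (SE 0.133), and Ccn1, a target of mechanical signalling, by -0.10 (SE 0.207). Leaving out Stat2 KO replicate 1 gave this list a median of -0.26, and leaving out WT replicate 2 one of -0.044.

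Blood vessel markers were balanced, with 4 lower and 4 higher of 8 and a median of 0.0070 (-0.059 after median centring). Pecam1, Cdh5, Kdr and Tek differed by -0.028, -0.45, 0.15 and 0.13, and Cdh5, the cadherin of endothelial junctions, had separate groups (limma adjusted p = 0.552). Skeletal muscle markers were higher in 7 of 8, with Ckm, Acta1, Myh4 and Myh1 at 0.11, 0.27, 0.60 and 0.16, and 0 of them had a mean above 7.01. The median of the muscle list was 0.15, but 0.069 after quantile normalization and 0.064 after cyclic loess. Of the 8, 2 had separate groups, both higher, where 13.3% of all genes were separate in either direction. The fast myosin gene Myh4 was among the 2 (SE 0.142, limma adjusted p = 0.351). Adipocyte markers were split 3 and 3, with Adipoq, Plin1, Fabp4 and Lep at -0.16, 0.0076, -0.61 and 0.14.

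**Figure D4:**
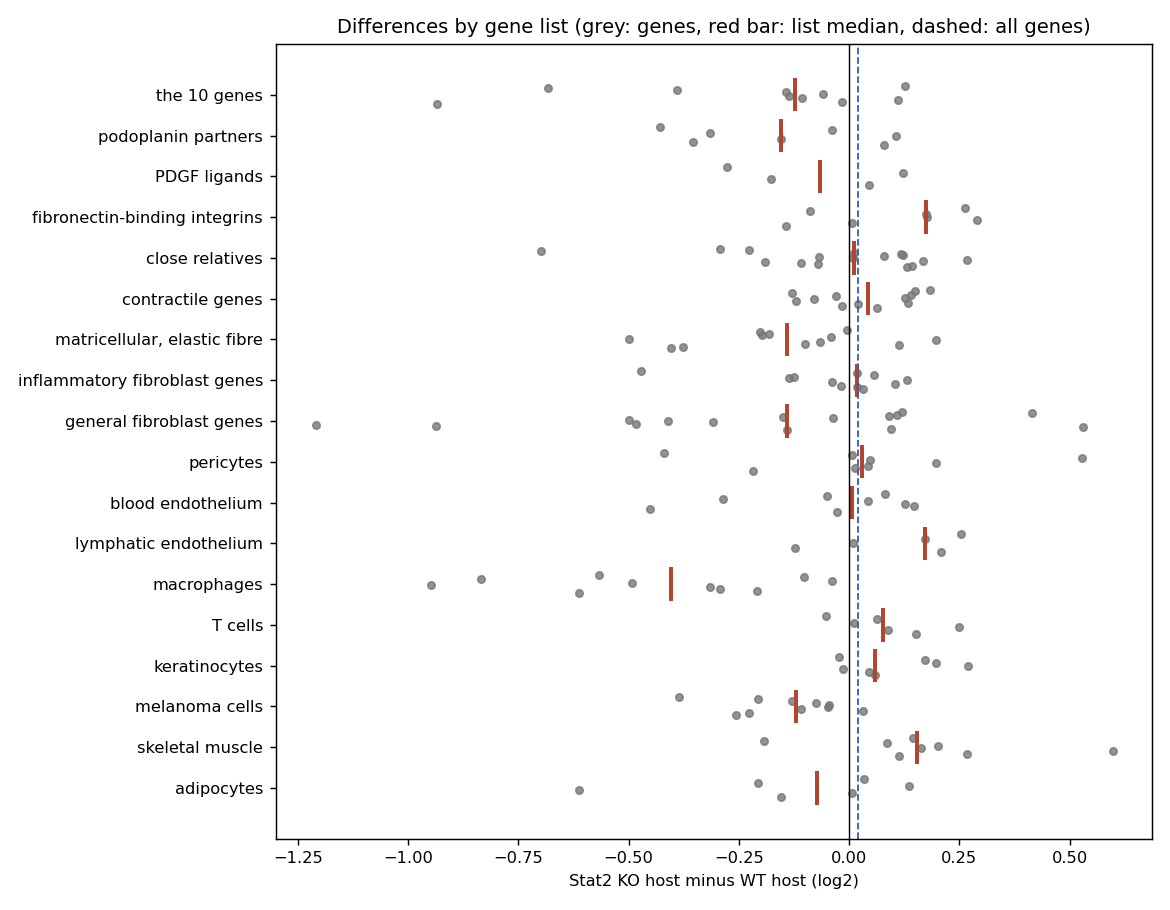
Stat2 KO host minus WT host differences (log2) of every measured gene in the 10 genes and in 17 further lists. Grey points are genes, red bars list medians, the solid line 0 and the dashed line the median of all genes, 0.021. The macrophage list lies furthest below 0, with a median of -0.40, while contractile, pericyte and vessel lists centre near 0.

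The genes whose pattern over the 6 tumours was most like that of Pdpn were found among 10422 genes brighter than the median gene, with predicted transcripts left out. Likeness was the root mean square gap between the deviations of both genes from their own means. The closest were Add3, which encodes the membrane skeleton protein adducin gamma, with a gap of 0.143, and Cmpk2, a mitochondrial nucleotide kinase induced by interferon, with 0.144. Gsto1, a glutathione transferase, followed at 0.151, Il13ra1, a receptor chain for interleukin 13, at 0.156 and Vcpkmt, a lysine methyltransferase, at 0.162.

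Add3 read 8.44, 8.56 and 7.73 in WT hosts and 7.81, 7.10 and 7.54 in Stat2 KO hosts. Cmpk2 read 8.25, 7.91 and 7.84 against 7.21, 6.85 and 7.22. Their host differences were -0.76 (SE 0.227, limma adjusted p = 0.462) and -0.91 (SE 0.159, limma adjusted p = 0.204), and those of the remaining 3 genes lay between -0.80 and -0.66. The nearest of the fibroblast genes was Fn1, at a gap of 0.296 and place 216, and the next Postn, at 0.388 and place 1259. Sparc was far, at 0.602 and place 8491. All of these genes were compared over the same 6 arrays and share their host contrast. The response element letters were in 0 of the 7 promoter windows of the 5 genes most like Pdpn.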

How the data were processed

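Expression was measured in 6 tumours on Affymetrix arrays. The deposited values are log2 expression per probe set, which the authors computed by RMA in Affymetrix Expression Console 1.3.1 (submitters' processing notes, per the labels). With no scan dates at hand no batch could be examined, and the number of arrays limits the precision. Of 41345 probe sets, 23521 had 1 gene, 1814 several and 16010 none, in the platform annotation. Symbols were updated through the RefSeq gene table for 23328 and kept for 193.

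Differences are Stat2 KO host minus WT host from limma 3.58.1 in R 4.3.3 (lmFit, eBayes with an intensity trend), two-sided, with Benjamini-Hochberg adjustment over 22180 genes and a threshold of 0.05. Exact permutation over 6 arrays cannot go below 0.1. Dim probe sets were kept. On simulated data with 22180 genes the fit found 94 of the 100 genes shifted by -1 (log2) and 100 of the 100 shifted by -2, with 14 false among 208 calls. The simulated noise was normal and independent between genes and arrays, with the fit's own variances and no shift shared across an array. It therefore checks the code and does not show how often such a change would be found in these tumours, where 2 genes passed.

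The genes and the 17 lists were chosen with earlier results of these data known, and 4 genes stand in more than 1 list. Genes named were Stat2, the 10 genes, all of the partner and relative lists, the first 4 measured of every other list, and the 5 genes most like Pdpn. Anpep, Mcam, Lum, Col3a1, Fbln1 and Mfap4 were named after their values were seen. Deviations of same-numbered tumours had correlations of 0.24, 0.079 and 0.030. Differently numbered tumours were not compared in this way, so whether the numbers mark pairs was not settled. The main fit used no replicate block.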

Additional observations from a re-analysis of the deposited data

How the results depend on the processing

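The alternatives were further normalizations, a filter on dim genes, other probe set rules, other variance settings, array weights, a replicate block and each tumour left out in turn. The number of genes past the threshold, 2, was 0 after quantile normalization, 1 after cyclic loess and without the intensity trend, and 257 with array weights; it ranged from 0 to 17 with a tumour left out. Of the 10 genes, 0 passed in 15 alternatives and 2, Pdpn and Fn1, with array weights. The number with separate groups, 1, was 2 after quantile normalization and cyclic loess and 3 after median centring, and ranged from 1 to 4 with a tumour left out, where fewer tumours make separation easier. For all genes that share, 13.3%, was 12.3%, 12.3% and 12.0% under those normalizations and 19.6% to 34.7% with a tumour left out. The count below 0 stayed between 6 and 9 and the median between -0.19 and -0.040. Signs turned for Pdgfra after cyclic loess (-0.0080), and with array weights for Pdgfra (-0.088) and Acta2 (0.060). With a tumour left out, differences ranged from -0.035 to 0.0016 for Fap, from -0.076 to 0.22 for Pdgfra, from -0.30 to 0.061 for Pdgfrb, from -0.32 to 0.16 for Acta2, from -0.20 to 0.044 for Tagln and from -0.055 to 0.34 for Sparc, so that each of these signs turned. The cause was not tested. With the replicate block 3 genes passed, 0 of the 10 among them, and the adjusted p of Pdpn was 0.140 and of Fn1 0.315; pairing changed no call of the 10. Signal over background could not be examined, as probe-level intensities were not used here.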
